A study of Sus scrofa with 4 samples.

Results

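The insulin-like growth factor (IGF) family was examined in a porcine model of intramuscular fat, in preadipocytes, in the adipocytes derived from them, and in those adipocytes after stimulation with serotonin or tumor necrosis factor alpha (TNF-α). The family comprised 10 genes, namely the ligands IGF1 and IGF2, the receptor IGF1R and the binding proteins IGFBP1 to IGFBP7. Its members were all probes whose gene name in the array files equaled one of these symbols, which gave 26 of the 43603 probes and 10 of the 34853 gene names on the array. The family was selected on the log2 differences that its genes showed on these same arrays in an earlier analysis, so every value below is a description.

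PIP cells are a preadipocyte line established from the longissimus thoracis muscle of 1 female Duroc pig, used at passages 26 to 35 in growth medium with 10% fetal calf serum. The mature adipocytes (pMA) had been 4 days post-confluent and then received 4 days of differentiation medium with 50 ng/mL insulin, 0.25 μM dexamethasone, 2 mM octanoate, 200 μM oleate and 10% serum. Stimulated pMA were exposed for 12 h to 100 μM serotonin, a dose that the labels write per mL, or to 2.5 µg/mL TNF-α. All 4 groups thus came from a single cell line, and differentiation stage and medium cannot be told apart between PIP and pMA. No vehicle and no matching 12 h are recorded for unstimulated pMA. Each stimulus therefore cannot be told apart from 12 h of further culture and handling. Each group went onto 1 array, which leaves the differences without replicates and without p-values. One paragraph of the methods has the RNA of a group pooled ahead of labelling but names a mouse array, and another, on a porcine array, mentions no pooling, so whether these arrays hold pools was not settled.

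IGF1 and IGF2 are secreted peptides that bind the IGF1 receptor, a tyrosine kinase close to the insulin receptor, which passes the signal to the PI3K-AKT and RAS-MAPK routes. IGFBP1 to IGFBP6 bind both ligands with high affinity, carry them in serum and tissue fluid and can restrain or prolong their action, whereas IGFBP7 binds them only weakly. In adipose tissue, preadipocytes and adipocytes make IGF1 themselves, and IGF signaling is known to promote adipogenesis.

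An array probe is a 60-base oligonucleotide, and several members had more than 1. The 4 probes on which the results turned are printed 5′ to 3′ as the array files give them, in lower case. The probe of IGFBP5 is shown because it alone carried the largest difference of the family. The 2 probes of IGF2 are shown because they overlap by 38 bases, in capitals, and differed in opposite directions upon differentiation. The probe of IGFBP6 was the most divergent of its 3 in the size of its differences.

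IGFBP5: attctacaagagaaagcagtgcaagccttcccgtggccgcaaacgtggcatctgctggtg
IGF2, probe 1: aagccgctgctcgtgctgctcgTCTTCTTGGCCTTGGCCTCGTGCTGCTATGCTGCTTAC
IGF2, probe 2: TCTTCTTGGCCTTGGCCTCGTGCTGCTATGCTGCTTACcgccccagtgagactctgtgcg
IGFBP6, probe 3: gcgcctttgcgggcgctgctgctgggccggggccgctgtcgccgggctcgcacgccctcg

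The IGFBP5 probe begins at base 665 of its RefSeq transcript in the array design. The first IGF2 probe begins at base 388 of the transcript it was designed on, and the second 22 bases further on with no mismatch in the shared stretch. The IGFBP6 probe has a GC content of 81.7%. Overlap was also found for the 2 probes of IGFBP2, which share 52 bases, and for probes 1 and 2 of IGFBP6, which share 56 aligned bases with 3 mismatches, so these pairs are not independent measurements. The files name no genome build, and no coordinates are given. In the RefSeq annotation of Sscrofa11.1, in which all 10 symbols were found, IGFBP2 lies next to IGFBP5 and IGFBP3 lies next to IGFBP1.

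Levels are given as the log2 intensity relative to the 75th percentile of the same array, so that 0 is the 75th percentile and a step of 1 is a factor of 2. The 75th percentile was at an intensity of 515 in PIP, 479 in pMA, 566 after serotonin and 559 after TNF-α, and 56.5% to 66.0% of probes were well above background. The scanner software attached an error of about 0.14 to a bright spot, and spots printed more than once for a probe varied within an array by a standard deviation of 0.11 to 0.15 on this scale. A difference between arrays therefore had a technical error near 0.20, which holds no biological spread. All 10 members had at least 1 probe well above background on every array. Of the 26 probes, 21 were well above background on all arrays, and no member probe was saturated. Each gene is represented by its brightest probe over the arrays, called probe 1.

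**Figure D1:**
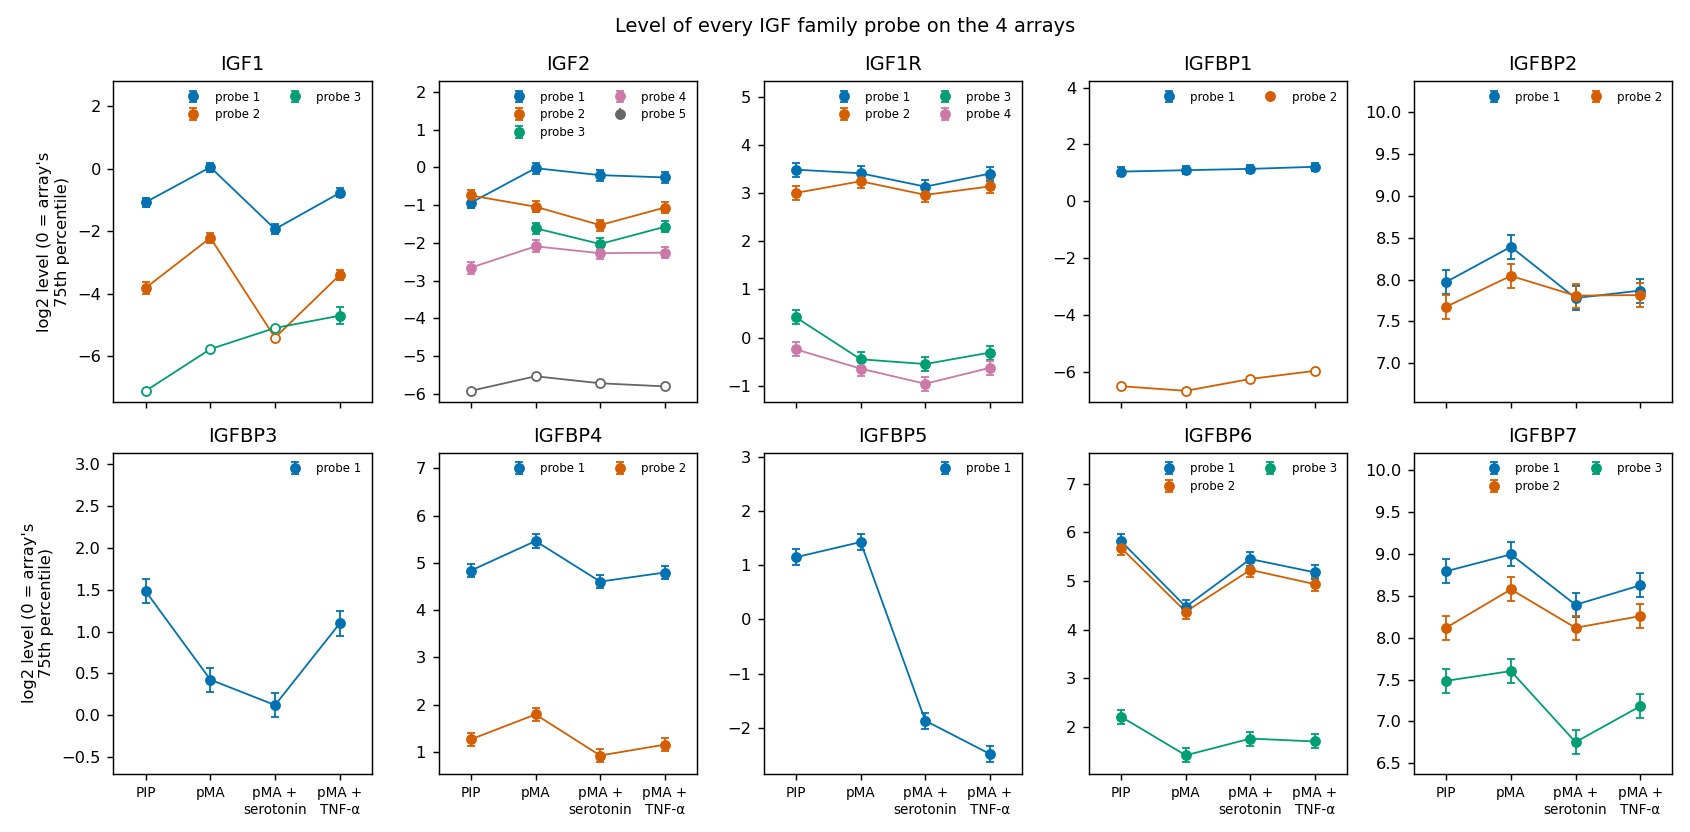
Scaled log2 level (0 is the 75th percentile of the array) of each of the 26 probes on the 4 arrays, 1 panel per gene and 1 line per probe, with the scanner error of each spot. Open circles mark spots not well above background, and IGFBP5 shows the widest range among the brightest probes, from 1.42 in pMA to -2.48 after TNF-α.

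Markers of the labelled cell type were checked first. Of 14 adipocyte markers on the array, 12 had a difference between pMA and PIP cells. Of these, 5 were at least 2-fold higher in pMA (9.92% of all gene names) and none was that far lower (3.56%). The 5 log2 differences were 5.17 for CD36, 3.87 for CIDEC, 3.13 for PLIN2, at least 3.08 for FABP4 and 1.07 for PPARG. PLIN1 was not well above background on any array, CEBPA was so only after TNF-α, and ADIPOQ only in PIP cells. On the log2 scale the summed level of the list was 2.68 in PIP, 4.24 in pMA, 5.37 with serotonin and 4.67 with TNF-α. With serotonin the list went both ways, since CD36 and LPL differed by 1.47 and 2.41 from unstimulated pMA and FABP4 and CIDEA by -2.77 and -2.06. Of the 5 macrophage markers listed, 3 were on the array, with a summed level between 0.68 and 1.63. CD14 and AIF1 were well above background on all arrays, and CD163 on none.

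Upon differentiation, 3 of the 10 members differed at least 2-fold between PIP cells and pMA. IGF1 was higher in pMA, whereas IGFBP3 and IGFBP6 were lower. Of all 18635 gene names with a difference in this comparison, 13.5% were at least 2-fold apart, 9.92% higher and 3.56% lower. The median log2 difference of the 10 members was 0.24, against 0.12 for all gene names, with 7 members above 0 and 3 below.

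IGF1, the ligand through which growth hormone exerts much of its action, had levels of -1.07 in PIP, 0.05 in pMA, -1.93 after serotonin and -0.77 after TNF-α on its brightest probe. The pMA array was thus the highest and the serotonin array the lowest, while TNF-α and PIP, between them, were 0.29 apart. pMA exceeded PIP cells by 1.12 ± 0.21 (scanner error) on the log2 scale, or 2.17-fold. The second probe gave a larger difference, 1.60, from intensities of 36.6 in PIP and 103 in pMA. The third probe was well above background only after TNF-α. The IGF1 difference was under 2-fold with scaling to the median (0.77) and after normexp background correction (0.97).

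IGF2, the ligand of fetal growth, gave no single answer. Its brightest probe had levels of -0.94, -0.02, -0.21 and -0.27 in PIP, pMA, serotonin and TNF-α, a difference of 0.92 between pMA and PIP cells. Under the 9 other settings this difference lay between 0.56 and 1.25 and reached 2-fold in 2. The second probe, which shares the 38 capital bases above, had levels of -0.74, -1.04, -1.53 and -1.06, a difference of -0.30. The fourth probe gave 0.56, the third had an outlier mark on the PIP array, and the fifth was not well above background on any array. Probes of 1 gene thus placed IGF2 on both sides of 0 upon differentiation, and the reason was not tested. After stimulation its 4 measured probes were close together, from -0.49 to -0.18 with serotonin and from -0.24 to 0.04 with TNF-α.

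IGF1R was among the steadiest members on its 2 brightest probes. Probe 1 had levels of 3.49, 3.41, 3.13 and 3.40 in PIP, pMA, serotonin and TNF-α, which spans 0.35 over the arrays. Upon differentiation it differed by -0.08, with a range of -0.43 (median scaling) to 0.26 (spike-in scaling) under the 9 other settings, 3 of which gave a value above 0. Probe 2 gave 0.24, while the dimmer probes 3 and 4 gave -0.87 and -0.40. With serotonin all 4 probes lay between -0.32 and -0.10, and with TNF-α between -0.11 and 0.14, all under 2-fold.

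IGFBP3, the main carrier of IGF in serum, had a single probe with levels of 1.48 in PIP, 0.42 in pMA, 0.12 after serotonin and 1.10 after TNF-α. pMA was lower than PIP cells by 2.08-fold, a log2 difference of -1.06 that lay between -1.41 and -0.72 under 9 other settings and reached 2-fold in 5 of them. PIP was the highest, TNF-α stood 0.38 below it and 0.67 above pMA, and pMA and serotonin were 0.30 apart. Serotonin and TNF-α arrays differed by -0.98, just short of 2-fold.

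IGFBP6, the binding protein with a preference for IGF2, was lowest in pMA on each of its 3 probes. The brightest probe had levels of 5.82 in PIP, 4.47 in pMA, 5.45 after serotonin and 5.18 after TNF-α. The log2 difference between pMA and PIP cells was -1.35 ± 0.20 (scanner error), or 2.54-fold lower, and remained past 2-fold under all 9 other settings. Probe 2 gave -1.31 and probe 3 gave -0.79. Both stimulated arrays were above unstimulated pMA on all 3 probes, by 0.98, 0.86 and 0.34 with serotonin and by 0.71, 0.56 and 0.28 with TNF-α.

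The remaining binding proteins differed less upon differentiation. IGFBP4, which inhibits IGF action until proteases cleave it, was 0.62 higher in pMA on probe 1 and 0.53 on probe 2. IGFBP2, an abundant product of preadipocytes, was 0.42 and 0.37 higher on its 2 overlapping probes, and IGFBP7 was 0.20, 0.46 and 0.12 higher on its 3. IGFBP5 differed by 0.28 and IGFBP1 by 0.05. Scaling to the median moved the median of all genes from 0.12 to -0.22 and turned the sign for IGFBP1, IGFBP5 and IGFBP7, whereas IGF1, IGF2, IGFBP2 and IGFBP4 stayed above 0 and IGFBP3 and IGFBP6 below 0 under all 9 settings. Among all genes past 2-fold, 73.6% were higher in pMA with the 75th percentile, 81.0% with that of probes well above background on all arrays, 92.0% with E1A spike-in scaling, 54.6% with quantile normalization, 56.5% with normexp and 33.9% with the median.

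**Figure D2:**
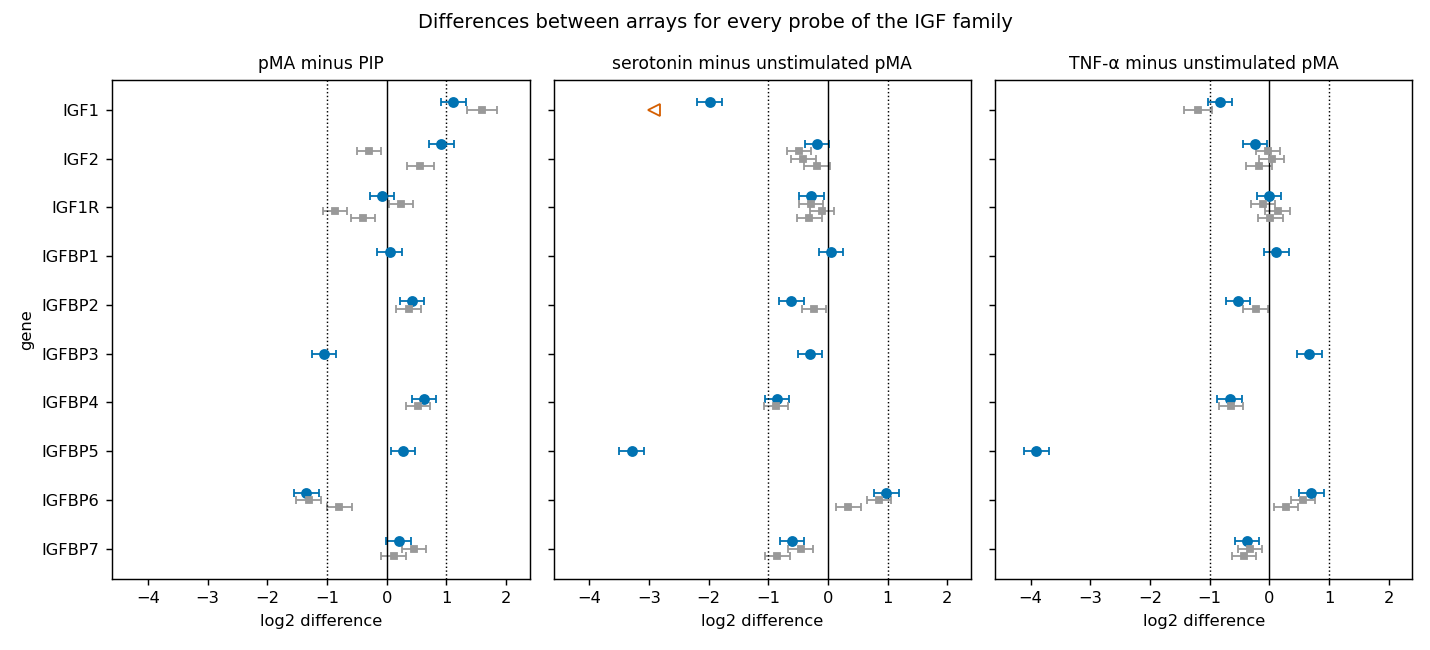
Log2 difference between arrays for each probe (pMA minus PIP, serotonin minus unstimulated pMA, TNF-α minus unstimulated pMA), with the scanner error of the difference. Blue circles are the brightest probe of a gene, gray squares its other probes, the open triangle a lower bound of the size, and dotted lines mark 2-fold. IGFBP5 lies at -3.29 and -3.91 in the stimulated arrays, and IGFBP6 changes side between differentiation and stimulation. The same unstimulated pMA array enters every comparison shown, with the opposite sign in differentiation.

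In serotonin-stimulated pMA, 2 of the 10 members were at least 2-fold lower than in unstimulated pMA, IGF1 and IGFBP5, and none was that far higher. Across the 19093 gene names with a difference, 6.82% were past 2-fold, 4.74% lower and 2.08% higher. The median log2 difference of the members was -0.45, against 0.01 for all gene names, with 8 members below 0 and 2 above. Among all genes past 2-fold, 30.5% were higher, which became 46.1% with E1A spike-in scaling.

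IGFBP5 is a binding protein that attaches to extracellular matrix and is made by fibroblasts and muscle cells. Its probe had intensities of 1138 in PIP, 1284 in pMA, 155 after serotonin and 100.1 after TNF-α, with levels of 1.14, 1.42, -1.87 and -2.48. All 4 were well above background. The unstimulated arrays were high and both stimulated arrays low, with PIP and pMA 0.28 apart and serotonin and TNF-α 0.61 apart. After serotonin the level was 9.79-fold lower than in pMA, a log2 difference of -3.29 ± 0.21 (scanner error) that ranged from -3.35 to -2.78 under the 9 other settings. Of 19093 gene names, 1726 of them with bounds in size, 18 including itself were at or below this difference as computed. At least 4-fold lower were 0.681% of all gene names and, among the members, IGFBP5 alone. It had a single probe on the array, so no second probe checks the value.

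IGF1 was 3.96-fold lower after serotonin than in unstimulated pMA, a log2 difference of -1.98 ± 0.21 (scanner error). Its second probe went from an intensity of 103 to one not well above background, which makes it at least 7.54-fold lower. Under the 9 other settings the difference lay between -2.45 and -1.62. The serotonin array was also below the PIP array, -1.93 against -1.07 on the brightest probe.

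Both probes of IGFBP4 were lower after serotonin, by 0.86 and 0.87 on the log2 scale. Its brightest probe had levels of 4.84 in PIP, 5.46 in pMA, 4.60 after serotonin and 4.80 after TNF-α, so pMA was the highest and the other 3 arrays lay within 0.23. The 2 IGFBP2 probes differed by -0.61 and -0.24, although they share most of their bases. IGFBP7 probes differed by -0.60, -0.46 and -0.85, and intensities of the brightest were 228818 in PIP, 244328 in pMA, 190307 with serotonin and 220845 with TNF-α. IGFBP3 stood at -0.30, IGF1R at -0.28, IGF2 at -0.18 and IGFBP1 at 0.05, each near the technical error or within it. IGFBP6, at 0.98, was the member farthest above 0 and passed 2-fold in 4 of the 9 other settings.

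Some markers from the muscle, preadipocyte or fibroblast and endothelial lists were lower on the serotonin array as well. Of the 6 muscle markers on the array, ACTA1 differed by -1.94, DES by -1.02 and CKM by -0.76, but MYOG by -0.01. The summed level of the list was 9.36 in pMA and 7.45 after serotonin. ACTA1 alone stood at 9.33 and 7.40, so the sum is mostly that gene. MYOD1 and MYF5 were not well above background on any array. Of the 5 preadipocyte or fibroblast markers with a difference, COL1A1 alone was past 2-fold, at -1.41. COL1A2 stood at -0.91, THY1 at -0.88, VIM at -0.34 and ENG at 0.13. The summed level of that list was 9.83 in pMA and 9.25 after serotonin. The endothelial list went from 0.19 to -1.07, with PECAM1 at -1.46, KDR at -0.76 and VWF at least 0.79 lower. CDH5 was not well above background on any array. After TNF-α the 3 summed levels were 9.25 for muscle, 9.58 for fibroblast and 0.19 for endothelial genes. Their part in the IGF1 and IGFBP5 values was not tested, and fewer cells of a type cannot be told apart from less RNA per cell in bulk RNA.

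In TNF-α-stimulated pMA, IGFBP5 was the 1 member of 10 past 2-fold. Of 19785 gene names with a difference, 3.55% were past 2-fold, 1.34% lower and 2.21% higher. IGFBP5 was 15.0-fold lower than in unstimulated pMA, a log2 difference of -3.91 ± 0.21 (scanner error), which was the lowest of all 19785 as computed, 2146 of which are bounds in size and could lie lower. At least 4-fold lower were 0.0708% of gene names. Under the 9 other settings it lay between -4.00 and -3.06. The median of the members was -0.31, against 0.01 for all gene names, with 7 below 0 and 3 above. Among all genes past 2-fold, 62.3% were higher, which became 50.0% with scaling to the median and 49.4% with quantile normalization.

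IGF1 was 1.77-fold lower after TNF-α, at -0.82, and its second probe was at -1.19, or 2.29-fold lower. IGFBP4 stood at -0.67 and -0.64 on its probes, IGFBP2 at -0.52 and -0.23, and IGFBP7 at -0.37, -0.32 and -0.42. On the other side of 0 were IGFBP6, at 0.71, and IGFBP3, at 0.67. IGF2 at -0.24, IGFBP1 at 0.12 and IGF1R at -0.01 were near or within the technical error. IGFBP1 is known for its fast regulation by insulin in the liver. Its brightest probe, designed on a genomic record, stayed between 1.05 and 1.21 on all arrays, while the second probe was not well above background on any, so that the 2 probes disagreed on whether the gene was detected.

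**Figure D3:**
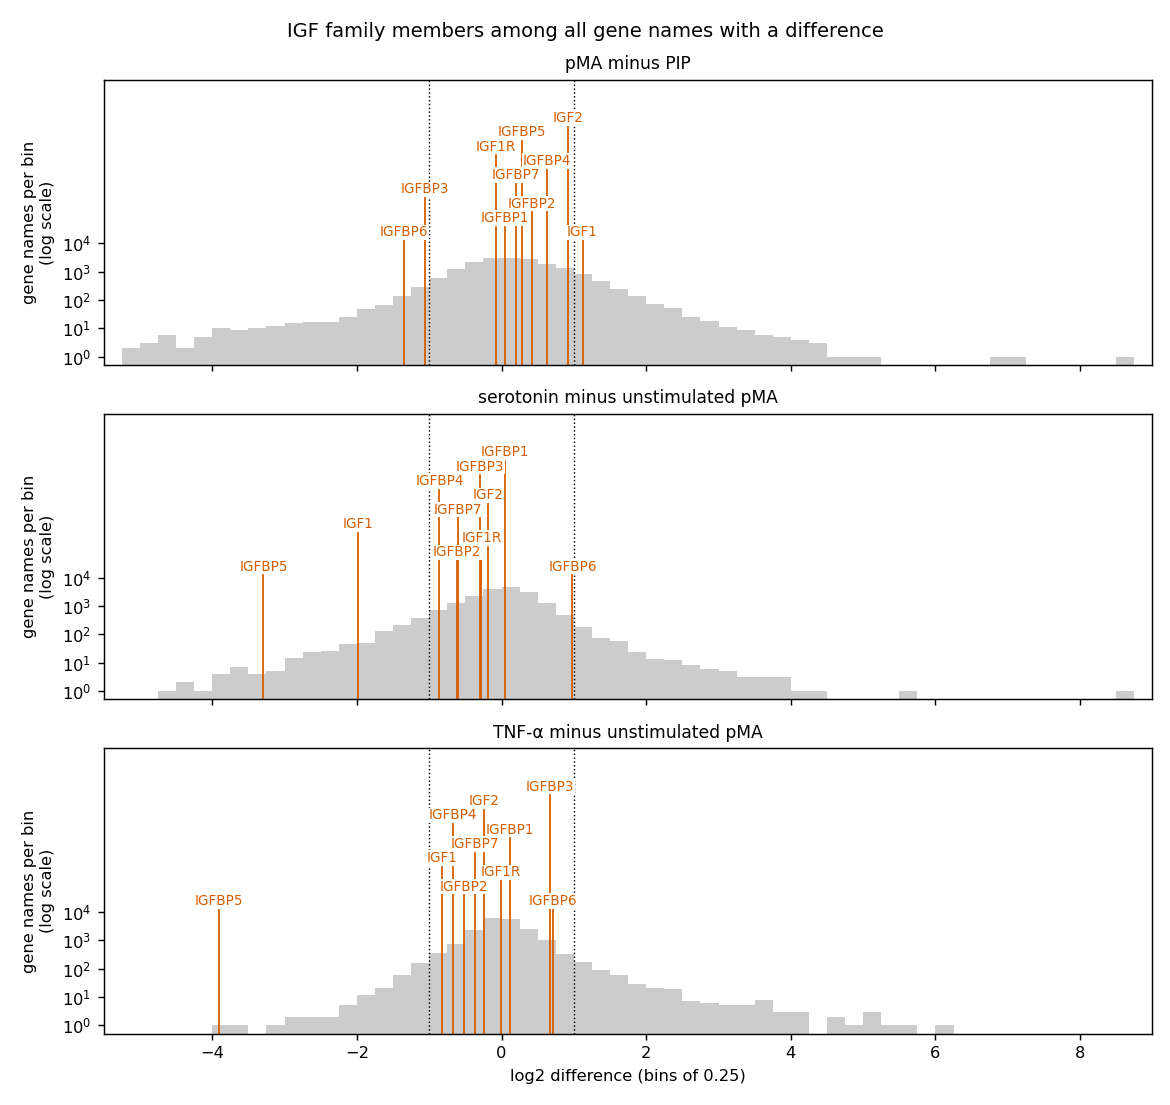
Number of gene names (log scale) by log2 difference in bins of 0.25, for differentiation, serotonin and TNF-α, with lines marking the brightest probe of each member and dotted lines at 2-fold. Label height has no meaning. IGFBP5 is at the far low end after TNF-α, where no gene name of 19785 was lower as computed, bounds included, while most members lie within 2-fold.

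The serotonin and TNF-α comparisons share the unstimulated pMA array, so any error of that array enters both. The same error enters the differentiation comparison with the opposite sign. Opposite signs upon differentiation and stimulation, as for IGF1, IGFBP4 and IGFBP6, are therefore not separate observations. Any effect of further culture and handling, for which no matched control is recorded, would enter both stimulation comparisons as well. Placing the 2 stimulated arrays against each other leaves the unstimulated pMA array out. Of the members, 1 of 10 was past 2-fold in this comparison, against 6.90% of 21864 gene names, 1.82% higher and 5.08% lower with serotonin. IGF1 was 2.23-fold lower with serotonin than with TNF-α, a log2 difference of -1.16. IGFBP3 was at -0.98 and IGFBP5 at 0.61, while the other 7 members lay between -0.27 and 0.27. The median of the members was -0.14, against -0.04 for all gene names. Among all genes past 2-fold, 26.4% were higher with serotonin, and this share was 41.0% with scaling to the median and 39.5% with quantile normalization.

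IGFBP5 was the only member whose brightest probe spanned at least 4-fold over the 4 arrays. Of 4623 other gene symbols well above background on all arrays, the 3 most alike in pattern by the distance between mean-centered levels included ENC1 and SNX12, at distances of 1.72 and 1.94. ENC1 differed by -0.76 upon differentiation, -3.61 with serotonin and -2.05 with TNF-α, and SNX12 by -0.39, -2.11 and -1.26. These rest on 4 arrays each. IGFBP2, the genomic neighbor of IGFBP5, had -0.61 as its farthest difference from 0 on either probe in any of the 4 comparisons.

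The wider IGF axis was described with 61 genes written from general knowledge, comprising other receptors, the carrier subunit, proteases and their inhibitors, growth hormone signaling, adaptors, kinase routes and related matricellular genes. Of these, 38 were on the array. Upon differentiation, 33 had a difference, with 2 at least 2-fold higher and 1 lower (13.5% of all gene names either way), and their median was 0.10 against 0.12 for all gene names. With serotonin none of 33 was at least 2-fold higher and 4 were lower (6.82% of all gene names either way), with a median of 0.05 against 0.01. With TNF-α 1 of 34 was at least 2-fold higher and none lower (3.55% of all gene names either way), with a median of 0.08 against 0.01. Between the serotonin and TNF-α arrays, 5 of 35 were at least 2-fold lower with serotonin (5.08% of all gene names) and 1 was higher (1.82%). Their median was -0.14 against -0.04. The 5 lower ones were STC2 at -2.27, NOV at -1.89, CRIM1 at -1.59, CYR61 at -1.19 and CCN2 at -1.07.

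Several of the larger differences were in the CCN family of matricellular proteins, whose amino-terminal module resembles that of the IGF binding proteins. NOV (CCN3) had intensities of 622 in PIP, 1898 in pMA, 504 after serotonin and 1845 after TNF-α. It was 1.71 higher upon differentiation, at -2.15 with serotonin and at -0.27 with TNF-α on the log2 scale, so that only the pMA and TNF-α arrays were high. WISP1 (CCN4) was 1.14 higher upon differentiation and 1.04 higher with TNF-α, against 0.25 with serotonin. CYR61, on its brightest probe, and CCN2 stood at -0.98 and -0.91 with serotonin, short of 2-fold. The 4 CYR61 probes lay between -1.08 and -0.91. CRIM1, a membrane protein with an IGFBP-like motif, was at -1.56 with serotonin.

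In growth hormone signaling, SOCS2, a feedback inhibitor of the receptor, was at -1.78 upon differentiation on its brightest probe. GHR, the growth hormone receptor, was at -1.35 with serotonin and -0.77 with TNF-α on its brightest probe. Its 3 probes with a difference lay between -1.35 and -0.83 with serotonin and between -0.77 and -0.30 with TNF-α. Intensities of the brightest were 108, 158, 73.1 and 108 in PIP, pMA, serotonin and TNF-α. STC2, which inhibits the protease that cleaves IGFBP4, had intensities of 13465, 6736, 2369 and 11259 in the same order, and was at -1.75 with serotonin, with its 3 probes between -1.75 and -0.88. On its brightest probe the insulin receptor INSR stood at 0.21 upon differentiation, 0.54 with serotonin and -0.05 with TNF-α. IGF2R, which clears IGF2, was at 0.55, 0.06 and -0.17 on its brightest probe. Other probes of both genes differed from these. Upon differentiation the 3 INSR probes with a difference lay between 0.21 and 1.52, and the 4 IGF2R probes between -0.22 and 0.67. With serotonin the INSR probes lay between 0.04 and 0.54, and the IGF2R probes between 0.06 and 0.64. With TNF-α these ranges were -0.43 to 0.14 for INSR and -0.28 to 0.14 for IGF2R. Among the 11 genes of the PI3K-AKT route with a difference, none was past 2-fold in these 3 comparisons. The shares over all gene names were 13.5%, 6.82% and 3.55%, so a count of none among 11 says little. IGFALS, the carrier subunit that completes the serum complex, was not well above background in PIP or pMA, and its levels of -4.78 with serotonin and -4.93 with TNF-α did not exceed the faintest level well above background on the pMA array, -4.64, so no bound could be given.

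**Figure D4:**
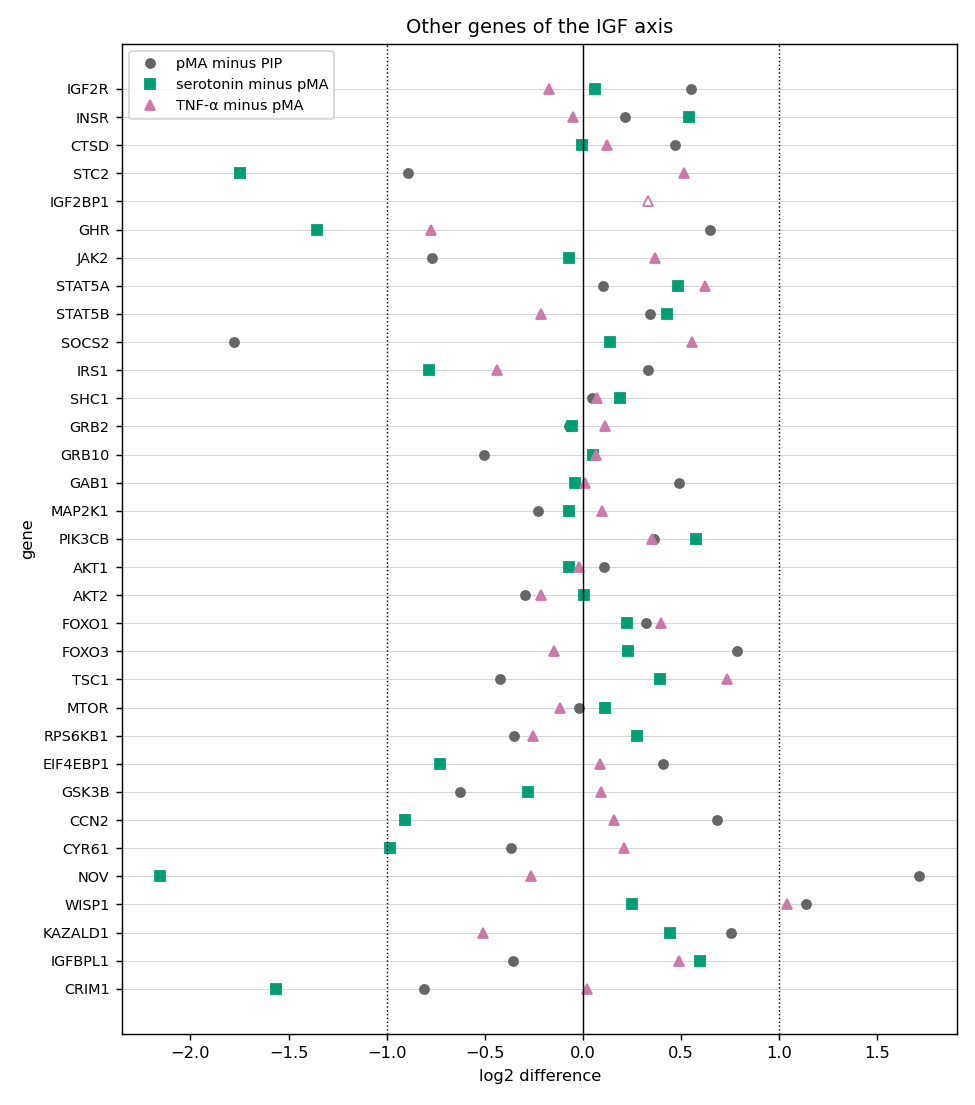
Log2 differences of the genes of the wider IGF axis that had one and are reported here, for pMA minus PIP (gray circles), serotonin minus pMA (green squares) and TNF-α minus pMA (pink triangles). Open symbols are lower bounds and dotted lines mark 2-fold. NOV, STC2, CRIM1 and GHR lie past -1 with serotonin only, and NOV, at 1.71, is the highest upon differentiation.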

How the data were processed

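Gene expression was measured on 4 porcine Agilent arrays in 1 color (Cy3), 1 for each of PIP, pMA, serotonin-stimulated pMA and TNF-α-stimulated pMA, all on 1 slide. Intensity was deposited as processed signal, background-subtracted per the file headers by Agilent Feature Extraction 10.7.3.1, which the authors used. The methods mention both a mouse array and a porcine array in dual color, neither of which the files show. The deposited series table holds a ratio, each intensity divided by 1 constant per array close to the 75th percentile of all spots, on a linear scale and without centring of genes. Its column medians were 0.0581 (PIP), 0.0766 (pMA), 0.0735 (serotonin) and 0.0797 (TNF-α), and it served as an alternative.

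Control spots and spots marked as outliers (12, 1, 3 and 4 on the arrays in the above order) were left out, spots of 1 probe were averaged, and intensities were divided by the 75th percentile and placed on a log2 scale. Where 1 of 2 arrays was not well above background, its value was raised to at least the faintest signal well above background on that array (intensities 14.7, 19.2, 16.2 and 14.7) and the difference was written as a lower bound in size. Where both were dim there was none. A gene was represented by the probe with the highest mean level. The size rule was 2-fold, as the methods had it. No test was made on 1 array per group, and the number of arrays limits the precision.

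All members were named, as were genes of the wider list at least 2-fold apart and the 3 gene symbols nearest to a member that spanned 4-fold, except for genes that are not reported here. Members and lists were chosen with earlier results of these data known. The alternatives were the median, quantile normalization, the 75th percentile of probes well above background on all arrays, 253 E1A spike-in spots, normexp correction with an offset of 50 (limma 3.58.1 in R 4.3.3), the series table, no filter on dim probes, a stricter filter, the median over probes and a 4-fold size rule. Scripts ran in Python 3.11.15 and were tested on simulated data.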

Additional observations from a re-analysis of the deposited data

How the results depend on the processing

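Each of the 10 alternatives changed 1 choice. The 10 members' log2 differences in 4 comparisons were recomputed under the 9 alternatives other than the 4-fold rule, and 325 of these values moved by less than the technical error and 35 by more. Of the members, the number past 2-fold upon differentiation was 3, and it was 2 with scaling to the median and after quantile normalization, 1 after normexp correction and 0 at 4-fold. It stayed 3 with spike-in scaling and with the 75th percentile of probes well above background on all arrays, but the members changed. In these 2 settings IGF2 passed 2-fold, at 1.25 and 1.01, and IGFBP3 did not, at -0.72 and -0.96. With serotonin it was 2, and it was 3 with scaling to the median, quantile normalization, spike-in scaling and normexp correction, where IGFBP6 also passed, and 1 at 4-fold. With TNF-α it was 1, and 2 with the median over probes. Between serotonin and TNF-α it was 1, and it was 2 after quantile normalization, 0 after normexp correction and 0 at 4-fold. Of the wider IGF axis, the number upon differentiation was 3, and it was 5 with scaling to the median, 6 with spike-in scaling, 7 with no filter on dim probes, 2 after normexp correction and 0 at 4-fold. With serotonin it was 4, and it was 5 with no filter on dim probes, 3 after normexp correction and 1 at 4-fold. With TNF-α it was 1, and 0 with scaling to the median, after normexp correction and at 4-fold. The share of all gene names past 2-fold under each alternative is not given here. Whether the counts of members and of the wider axis only follow that share was not tested. All gene names shifted as well. Upon differentiation, those with a difference went from 18635 to 34846 with no filter on dim probes. Their median went from 0.12 to 0.48 with spike-in scaling. Under the 9 alternatives IGFBP5 kept its place past 4-fold in both stimulated arrays. The sign of IGF1R with TNF-α was kept in 5 of 9 alternatives.

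No paired analysis was possible because each group has 1 array, and no replicate could be left out. A single probe stands behind IGFBP3 and IGFBP5. Differences near 0.20 on the log2 scale are within the technical error, and the spread between cultures is unknown, since each group has 1 array. Spike-in controls stood -0.34 lower on the pMA array than on the PIP array after scaling, so the differentiation values move together with the choice of scale. Dim probes give bounds only.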

Other observations

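Of the probes that carry another gene name but are described in the files as a member, one described as IGFBP7 was not well above background in PIP and pMA and was at least 0.57 higher with serotonin and at least 0.23 higher with TNF-α on the log2 scale, whereas the 3 probes named IGFBP7 were lower in both. One described as IGF1R was not well above background on any array, with intensities of 3.44 to 4.65. Neither was counted as a member.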
